A study of Mus musculus with 4 samples.

Results

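The 8 genes examined here encode subunits of CatSper, the calcium channel of the sperm tail. They are Catsper1, Catsper2, Catsper3 and Catsper4, which encode the pore-forming subunits, and Catsperb, Catsperd, Catsperg1 and Catsperg2, which encode accessory subunits. They were taken by name, as 8 of 37718 gene rows with 139 of 207562 introns, 204 of 359565 exon segments, 167 of 240574 annotated junctions and 16 of 5005 unannotated junctions. They were chosen by a readout of these samples, since the difference between genotypes in the gene count of Catsperg1 and in its intron 22 was already known. Every genotype difference of the 8 genes is therefore given as a description, without a p-value.

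Total RNA was sequenced from hCD4+ cells of the testes of mice at 20 days post partum, with 2 samples of Tdrd6+/- and 2 of Tdrd6-/- mice. In both genotypes the cells were sorted on magnetic beads through human CD4, a surface marker driven by the endogenous Tdrd6 promoter, and the series describes them as diplotene cells pooled from at least 4 mice. Diplotene is the stage of the first meiotic division at which paired chromosomes begin to separate. The controls were heterozygous, and no wild type sample was among those analysed. The labels do not say whether the 2 pools of a genotype shared mice, so that the spread between samples may be partly technical.

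CatSper opens when the inside of the sperm becomes alkaline and lets calcium into the flagellum, which brings about the vigorous beat called hyperactivation. The 4 pore-forming proteins assemble around 1 pore, and the large accessory proteins cover its outer side. Male mice without a pore-forming subunit make sperm but are infertile. Genes of the accessory subunits are read already in spermatocytes, whereas those of most pore-forming subunits are known as genes of haploid spermatids.

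The gene counts of a sample summed to between 26454326 and 31388750, and its intron counts to between 9603669 and 13937818. The second Tdrd6-/- sample stood apart by the lowest intron share, 21.9% of tallied fragments against 27.1% to 31.0% in the other samples. Tdrd6 itself lay at 1269 and 1412 CPM (counts scaled to a common library total) in Tdrd6+/- and at 11.4 and 12.5 CPM in Tdrd6-/-, as the labels have it. All 16 markers of late primary spermatocytes passed the filter on low counts, with Hspa2, a chaperone of spermatocytes, as the highest at 783, 847, 851 and 872 CPM per kb in the order Tdrd6+/- 1, Tdrd6+/- 2, Tdrd6-/- 1 and Tdrd6-/- 2. This order of samples is kept wherever 4 values are listed below.

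The levels of the 8 genes fell into a high and a low set. A level is given as CPM per kb of annotated exon, with library totals scaled by the trimmed mean of M values (TMM). The exon length was that of 1 annotated transcript for Catsper1, Catsperb, Catsperd and Catsperg2. For the other 4 members and all other genes it was that of all annotated transcripts together, so levels and ranks rest on unlike lengths. Over the 4 samples, Catsper2 reached 76.1 ± 13.2 (SD, n = 4), Catsperg2 74.1 ± 5.30, Catsperb 73.6 ± 4.00 and Catsperd 65.2 ± 2.89 CPM per kb. Catsperg1 followed at 23.7 ± 7.71 CPM per kb. The other 3 pore-forming genes were far lower, Catsper4 at 1.97 ± 0.51, Catsper1 at 1.01 ± 0.32 and Catsper3 at 0.97 ± 0.46 CPM per kb. Among 18827 genes ranked by this level, Catsper2 stood at place 636 and Catsper3 at place 11164.

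By exon length, some neighbours in this order did not differ beyond their spread. Catsper2 exceeded Catsperg2 in 1 of 4 samples, Catsperg2 exceeded Catsperb in 2 of 4, and Catsper1 exceeded Catsper3 in 2 of 4. Catsperb exceeded Catsperd in 4 of 4 samples, by a mean ratio of 1.13 ± 0.06. The step from Catsperd to Catsperg1 had a mean ratio of 3.01 ± 1.08 and that from Catsperg1 to Catsper4 one of 13.2 ± 6.88, each in the same direction in 4 of 4 samples. The deposited features of Catsperg1 cover 7044 bp of exon, more than its longest coding transcript with 3670 bp, and by the length of the latter its level was 45.4 ± 14.8 CPM per kb, still below Catsperd. By the same measure Catsper2, with a transcript of 2247 bp, reached 125, 156, 112 and 108 CPM per kb, above Catsperg2 in 4 of 4 samples, so that its place beside Catsperg2 and Catsperb depends on the length used. Within the channel, Catsper2 was 53.7 and 52.8 times the level of Catsper4 in Tdrd6+/- and 26.0 and 31.7 times in Tdrd6-/-, so that the low pore-forming genes stood closer to Catsper2 in the samples without Tdrd6.

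**Figure D1:**
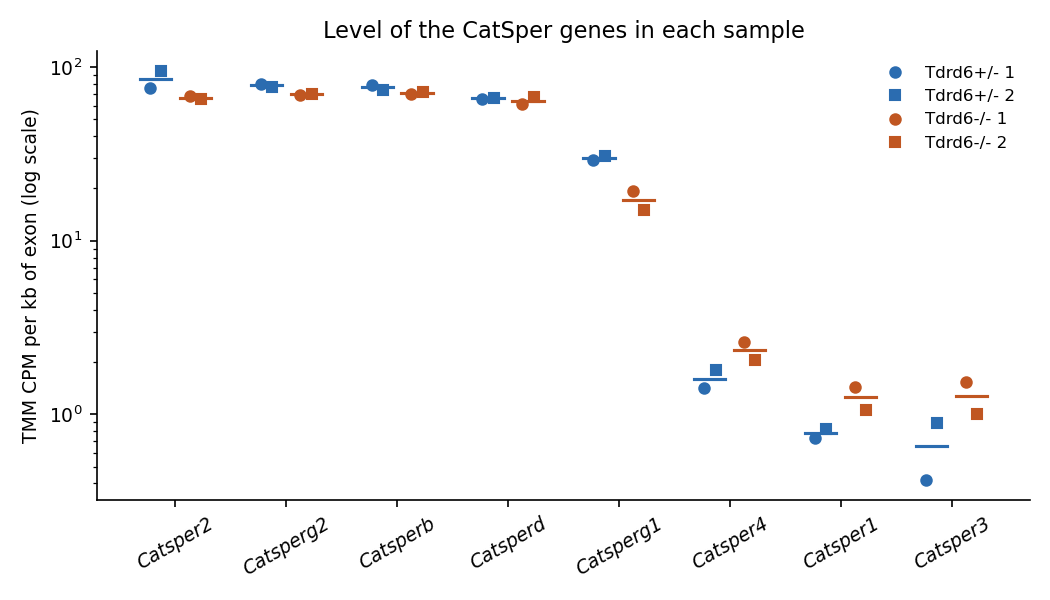
Level of each of the 8 CatSper genes in each sample, as TMM-scaled CPM per kb of exon on a log axis, with circles for replicate 1, squares for replicate 2 and lines at the group means (n = 2 per genotype). Catsper2, Catsperg2, Catsperb and Catsperd sit at about the same height, Catsperg1 below them with both Tdrd6-/- samples under both Tdrd6+/- samples, and Catsper4, Catsper1 and Catsper3 near the bottom.

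Of the pore-forming genes, Catsper1, Catsper3 and Catsper4 had higher values without Tdrd6, and none of them passed the false discovery rate of 0.1 in edgeR's quasi-likelihood test. Catsper1, at chr19:5335741-5344280 of mm10 on the plus strand, encodes a subunit that lines the pore and carries a histidine-rich tail. Its counts were 42, 50, 100 and 74, so that both Tdrd6-/- samples lay above both Tdrd6+/- samples, with a log2 fold change of 0.69 ± 0.31 (SE). Catsper3, at chr13:55784568-55808998 on the plus strand, had counts of 15, 34, 66 and 44 and a log2 fold change of 0.94 ± 0.40. Catsper4, at chr4:134211970-134227383 on the minus strand, had counts of 78, 105, 174 and 139 and a log2 fold change of 0.54 ± 0.26. In all 3 genes the genotypes did not overlap in counts or in CPM, and in CPM this held for 43.5% of all genes tested. The second Tdrd6-/- sample lay below the first in each. Without Tdrd6+/- replicate 2, the change of Catsper3 moved to 1.59, and without Tdrd6+/- replicate 1 to 0.51.

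The summed level of 12 markers of round and elongating spermatids was 14.5 and 20.1 CPM per kb in Tdrd6+/- and 28.2 and 26.6 CPM per kb in Tdrd6-/-, without overlap. Of the 7 markers tested, 2 passed with higher values in Tdrd6-/-, namely Spaca1 and Acrv1, which encode proteins of the acrosome, with log2 fold changes of 0.83 ± 0.22 (edgeR adjusted p = 0.0359) and 0.96 ± 0.27 (edgeR adjusted p = 0.0565). Neither passed without Tdrd6+/- replicate 1 (0.72 and 0.58) or without Tdrd6-/- replicate 1 (0.80 and 0.80), Spaca1 did not without Tdrd6-/- replicate 2 (0.87), and Acrv1 stood at 1.53 without Tdrd6+/- replicate 2. The median log2 fold change of the 7 tested was 0.73. Of all genes tested, 1.02% passed with higher values in Tdrd6-/-. The defining protamine and transition protein genes had low counts. Prm1 had 0, 0, 0 and 4 counts, Tnp2 had 1, 1, 0 and 4, and Prm2 had 7, 4, 3 and 7. Tnp1, with 0, 3, 10 and 9 counts, was higher in both Tdrd6-/- samples. Prm3, with 4, 11, 18 and 12 counts, was tested and did not pass (log2 fold change 0.76 ± 0.57). The part of these markers in the values of Catsper1, Catsper3 and Catsper4 was not tested. A larger share of such cells cannot be told apart from more RNA per cell in these bulk samples. The authors counted round spermatids, secondary spermatocytes and diplotene cells among hCD4+ cells at this age, and reported no significant difference between genotypes. Whether the sequenced pools were among those counted is not given.

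Catsper2, the pore-forming gene of the high set at chr2:121392631-121413792 on the minus strand, went the other way. Its counts were 7361, 9758, 7958 and 7746, and its levels 76.1 and 94.8 CPM per kb in Tdrd6+/- and 68.1 and 65.5 CPM per kb in Tdrd6-/-. The log2 fold change of -0.36 ± 0.14 did not pass. The size of the difference depended on the second Tdrd6+/- sample, and without it the change was -0.19. Leaving out Tdrd6+/- replicate 1 brought it past the threshold at -0.49. The first exon of Catsper2 overlaps the start of Pdia3 on the opposite strand, and 2 further annotated genes, Gm14000 and Gm14001, lie within intron 7 of Catsper2. The libraries were directional, but whether the counting used strand is not given in the sources used here.

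The accessory genes of the high set had log2 fold changes near 0. Catsperb, at chr12:101404653-101626009 on the plus strand, encodes a large subunit with 1 membrane span and had counts of 7692, 7650, 8206 and 8516 with a log2 fold change of -0.11 ± 0.13. For Catsperd, at chr17:56628143-56664456 on the plus strand and needed for a stable channel, the counts were 4389, 4760, 4931 and 5509 and the log2 fold change was -0.05 ± 0.13. Catsperg2, at chr7:29697219-29727032 on the minus strand, had counts of 8337, 8425, 8647 and 8919 with a log2 fold change of -0.17 ± 0.13. None of the 3 passed, and with library totals in place of TMM the value of Catsperd turned to 0.04.

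Catsperg1 was the only one of the 8 that passed, with lower values without Tdrd6. It lies at chr7:29181321-29214035 on the minus strand and encodes the gamma subunit, as its neighbour Catsperg2 does. Its counts were 5417, 6069, 4294 and 3396, and its levels 29.4 and 30.9 CPM per kb in Tdrd6+/- and 19.3 and 15.1 CPM per kb in Tdrd6-/-. The log2 fold change was -0.81 ± 0.14, a ratio of the means of 0.570. The ratio of Catsperg1 to Catsperg2 was 0.365 and 0.405 in Tdrd6+/- and 0.279 and 0.214 in Tdrd6-/-, so that the genotypes did not overlap in this ratio either. Catsperg1 did not pass without Tdrd6-/- replicate 2, where the log2 fold change was -0.64, or without the filter on low counts, where it was -0.79. Its genotype difference belongs to those that chose the set, and nothing is read from it.

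Across all 16555 genes tested, 794 passed (4.80%), 625 of them lower (3.78%) and 169 higher (1.02%) in Tdrd6-/-. The CatSper genes gave 1 of 8 passed, lower, and a median log2 fold change of -0.08 beside 0.01 over all genes tested. With library totals in place of TMM, 590 genes passed and 212 of them were higher. The CPM of the genotypes did not overlap in 7 of the 8 genes, Catsperd being the exception, against 43.5% of all genes tested.

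**Figure D2:**
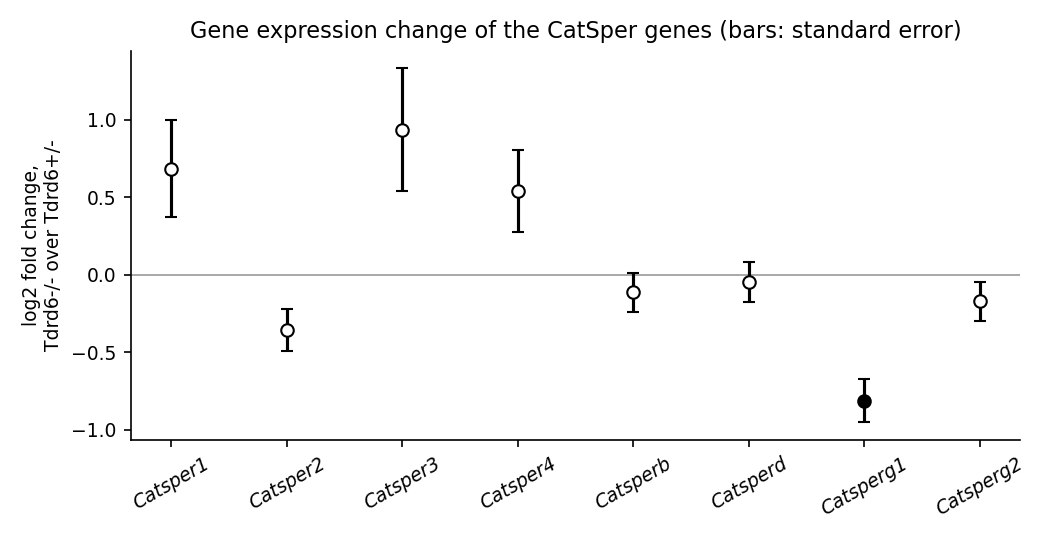
Log2 fold change of gene expression, Tdrd6-/- over Tdrd6+/-, from edgeR for the 8 CatSper genes, with bars for 1 standard error and a filled point for the gene that passed the false discovery rate of 0.1. Catsperg1 is the filled point at -0.81, Catsper1, Catsper3 and Catsper4 lie above 0 with long bars, and the other 4 lie below 0.

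Counts of Catsperg1 and Catsperg2 may not be fully kept apart, since the genes are near copies. Over 3432 aligned coding bases they share 96.5%. Of all windows of 50 bases in the longest coding transcript of Catsperg1, 41.0% occur unchanged in that of Catsperg2, and of windows of 100 bases 21.3%. How reads that fit both genes were counted is not given in the sources used here. The following junctions show a stretch that is the same in both genes and another that differs. Each has 15 coding bases on each side from the GENCODE transcripts of mm10, 5′ to 3′ on the minus strand. Whether whole reads over these junctions can be told apart was not checked. In the first pair capitals mark the bases after the junction, and both genes have the same 30 bases. The Catsperg1 junction joins exon 2 to exon 3 over chr7:29210534-29210641, and that of Catsperg2 spans chr7:29725089-29725196.
Catsperg1 exon 2 to 3: atcgatccgtcagagAACTATTTGAGCTTT
Catsperg2 counterpart: atcgatccgtcagagAACTATTTGAGCTTT
In the other pair, over chr7:29191749-29195213 in Catsperg1 and chr7:29706604-29709806 in Catsperg2, capitals mark the 3 bases that differ.
Catsperg1 junction 85: agtggtgaaccaagggaactacAagATgat
Catsperg2 junction 42: agtggtgaaccaagggaactacCagGCgat
Both junctions had lower counts in Tdrd6-/- for Catsperg1. The first gave 190, 216, 135 and 98 counts and the second 131, 142, 92 and 79. The counterparts in Catsperg2 had 359, 349, 391 and 389 counts and 352, 372, 337 and 370 counts.

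The junctions of Catsperg1 were lower in Tdrd6-/- along the whole gene. Of its 47 annotated junctions, 37 had at least 10 counts over the 4 samples, 30 had at least 100, and 6 had none, with 259 as the highest count in 1 sample. The junction counts summed to 3541 and 3894 in Tdrd6+/- and to 2645 and 2127 in Tdrd6-/-. In CPM, both Tdrd6-/- samples lay below both Tdrd6+/- samples in all 30 junctions with at least 100 counts, with log2 ratios of the means from -1.34 to -0.35. In Catsperg2 the same held for 9 of 28 junctions, 3 were higher and 16 overlapped. The share of all junctions without overlap was not computed, while for gene CPM it was 43.5% of all genes tested. Junctions of 1 gene share the fall of its gene count, so nothing is read from these numbers. The reduction was uneven along Catsperg1, and the smallest differences lay at its ends, with -0.35 at the junction out of exon 1 and -0.40 at one near the 3′ end. The 15 junctions nearest its start had a median log2 ratio of -1.03 and the 15 farthest one of -0.85. The summed count of the former over that of the latter was 0.908 and 0.866 in Tdrd6+/- and 0.731 and 0.740 in Tdrd6-/-, without overlap. In Catsperg2 this ratio was 1.18, 1.14, 1.16 and 1.03, and the genotypes overlapped, as they did in Catsper2 and Catsperb. In Catsperd, at 0.745, 0.724, 0.749 and 0.745, they did not overlap either, with a log2 ratio of the means of 0.02.

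**Figure D3:**
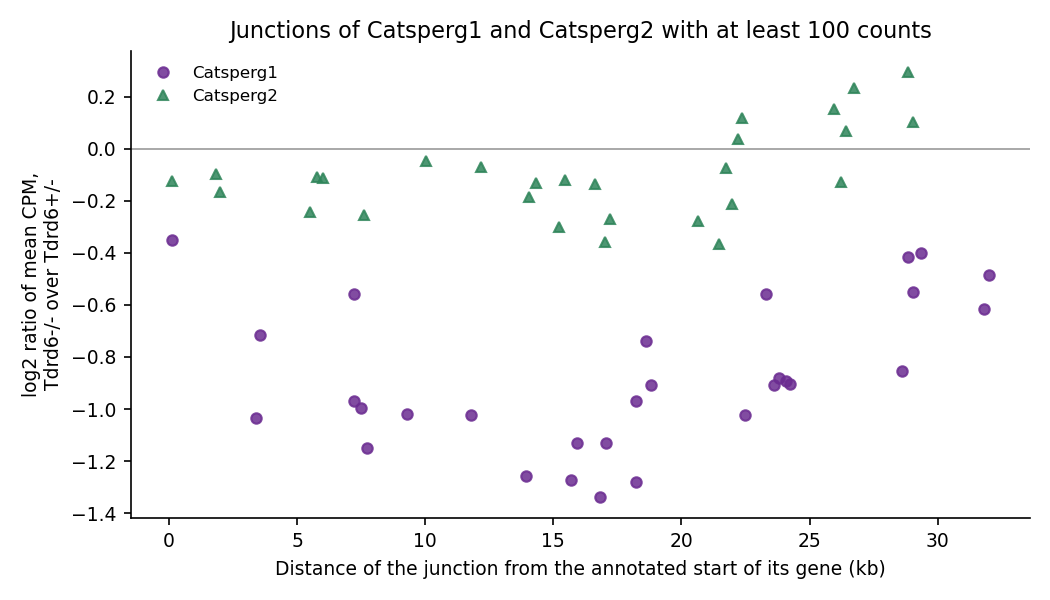
Log2 ratio of the mean CPM in Tdrd6-/- over that in Tdrd6+/- for each annotated junction with at least 100 counts, against its distance in kb from the annotated start of the gene (30 junctions of Catsperg1, circles, and 28 of Catsperg2, triangles). The circles lie between -1.34 and -0.35, with the junction out of exon 1 as the least reduced, and the triangles between -0.36 and 0.29.

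The first intron of Catsperg1 held the largest share of its intron counts. Introns are numbered along the chromosome, so that intron 22 of this minus-strand gene follows exon 1, at chr7:29211496-29213915, within the part ahead of the coding sequence. It had 1503 and 1859 counts in Tdrd6+/- and 741 and 518 in Tdrd6-/-, so that every Tdrd6-/- value lay below every Tdrd6+/- value. Per kb this was 621, 768, 306 and 214 counts, while the other 21 introns together had 113, 121, 108 and 81.9 counts per kb. Intron 22 thus held 36.4% and 39.8% of all intron counts of Catsperg1 in Tdrd6+/- and 22.8% and 21.4% in Tdrd6-/-, a log2 ratio of the mean shares of -0.79. This intron is among the readouts that led to the set, and its values are a description.

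The fall in intron 22 was larger than that of the gene. For every 100 gene counts there were 27.7 and 30.6 counts of intron 22 in Tdrd6+/- and 17.3 and 15.3 in Tdrd6-/-. In CPM the log2 ratio was -1.65 for intron 22 and -0.53 for the other 21 introns together. Over whole libraries there were 52.7 and 41.9 intron counts per 100 gene counts in Tdrd6+/- and 42.5 and 30.6 in Tdrd6-/-. The genotypes overlapped, with a log2 ratio of the means of -0.37. The median log2 ratio over genes was -0.24. The part of these library-wide values in the ratios of Catsperg1 was not tested. The rest of the stretch between exon 1 and exon 2 moved in the same direction. Exon segment 61, of 159 bp next to exon 2 at chr7:29210926-29211084, had 148, 141, 65 and 44 counts and a log2 ratio of -1.64 in CPM. Intron 21, of 362 bp, had 92, 97, 65 and 35 counts. Exon segment 62, of 49 bp and the first exon of 1 annotated coding transcript, had 86, 101, 76 and 33 counts.

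**Figure D4:**
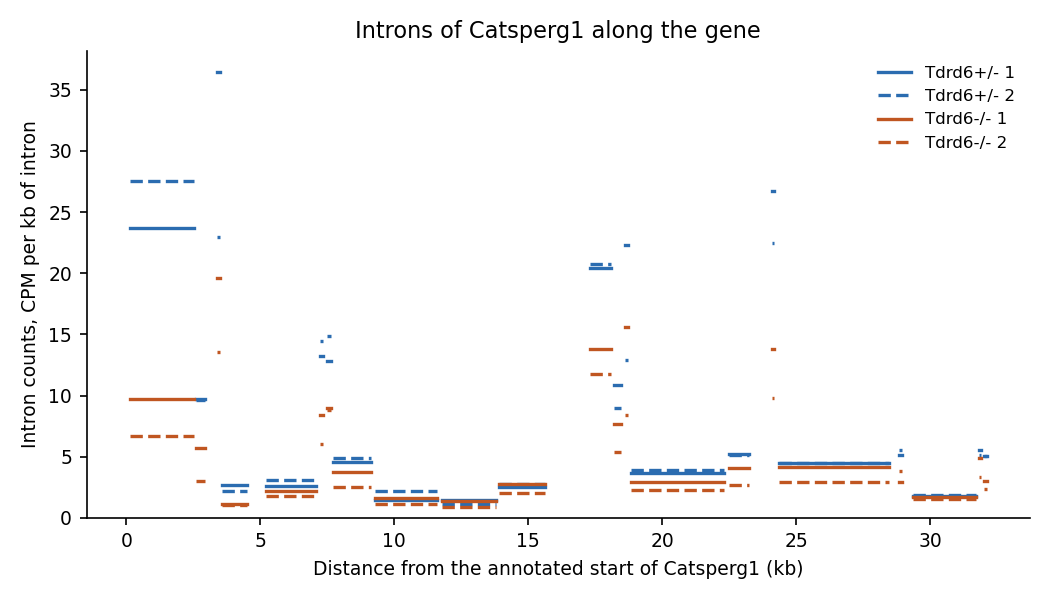
Counts of each of the 22 introns of Catsperg1 as CPM per kb of intron, drawn over the intron's extent in kb from the annotated start of the gene, with full lines for replicate 1 and dashed lines for replicate 2. Intron 22, at the left, lies far above the other introns of more than 1 kb, while several short introns reach similar heights, and both Tdrd6-/- lines lie below both Tdrd6+/- lines there.

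Reads spliced out of exon 1 differed less between the genotypes. The 3 junctions that leave exon 1 had 44, 54, 49 and 43 counts together, which overlapped. In CPM they were 1.68 and 1.94 in Tdrd6+/- and 1.55 and 1.34 in Tdrd6-/-, without overlap, with a log2 ratio of -0.32. The next junction, from exon 2 to exon 3, had the 190, 216, 135 and 98 counts given above and a log2 ratio in CPM of -1.03. For every 100 reads over the latter there were 23.2 and 25.0 over the former in Tdrd6+/- and 36.3 and 43.9 in Tdrd6-/-. Exon segment 63, the part of exon 1 next to the intron, had 49, 65, 61 and 48 counts, and the genotypes overlapped in counts and in CPM. The unannotated junction of the gene, for which the files give no position, had 32, 25, 14 and 15 counts. These counts are small, and those over exon 2 to exon 3 lie where Catsperg2 has the same bases next to the junction.

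Catsperg1 also has pairs of exons that can be skipped. Junction 86, over chr7:29191749-29195827, skips both exons of the first pair and is annotated in a transcript marked for nonsense-mediated decay, the surveillance of transcripts with an early stop. It is shown with capitals for the 15 bases after the junction, which are those that follow junction 85 above.
Catsperg1 junction 86: acagaaaatgaagagGAACTACAAGATGAT
It had 94, 100, 47 and 47 counts, while the reads entering the first exon of the pair were 91, 125, 87 and 42 and those skipping 1 exon 31, 32, 21 and 15. Skipping made up 43.5% and 38.9% of the reads leaving the exon upstream in Tdrd6+/- and 30.3% and 45.2% in Tdrd6-/-, so that the genotypes overlapped. For the second pair the skipping share was 37.1% and 28.9% in Tdrd6+/- and 25.3% and 32.9% in Tdrd6-/-, again with overlap.

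Usage asks whether a feature changed relative to the rest of its gene, each intron against the gene's other introns, and each exon segment or junction against the gene count. By likelihood ratio, with the false discovery rate held at 0.1, 14 of 95 tested CatSper introns passed, beside 3.80% of 48872 introns overall. Of exon segments 4 of 146 passed, beside 1.47%, and of junctions 2 of 111 annotated and 0 of 3 unannotated, beside 0.932%. The contrast is the one that chose the set, so nothing is read from these counts. With DESeq2's default dispersions 0 CatSper features passed, and 0 passed in edgeR's usage test, which differs in its model and test as well. On simulated introns 22.8% of the calls made with the setting used were unchanged introns.

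In Catsperg1, 5 introns and 3 exon segments passed. Intron 22 was the one with a lower share, by a log2 change of -1.12 ± 0.13 against the other introns. Introns 3, 5, 8 and 12 had higher shares, by 0.72 ± 0.18, 0.61 ± 0.10, 0.36 ± 0.10 and 0.74 ± 0.15. Shares are relative, so a lower share of intron 22 goes with higher shares elsewhere, and the median over the 16 tested introns was 0.28. In CPM, 15 of 19 Catsperg1 introns with at least 100 counts were lower in Tdrd6-/-, 0 were higher and 4 overlapped. The share of all introns without such overlap was not computed. The annotated gene Gm17113 lies on the opposite strand within intron 3, at chr7:29183036-29183383. Intron 5 had 484, 510, 535 and 388 counts, a share of 11.3% ± 0.57 in Tdrd6+/- and of 16.2% ± 0.32 in Tdrd6-/-. Exon segment 61 was lower at -0.85 ± 0.20, and segments 14 and 42 were higher at 0.53 ± 0.16 and 0.80 ± 0.24. None of the 24 tested junctions of Catsperg1 passed, and their log2 changes of usage ran from -0.47 to 0.43. The smallest p-values were those of junction 72, near the 3′ end, with 136, 178, 151 and 128 counts, and junction 95, with 176, 172, 88 and 82 counts.

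In Catsperg2, introns 11 and 28 had lower shares, at -0.58 ± 0.19 and -0.56 ± 0.17. Intron 28 follows the first exon of this gene too, at chr7:29725481-29726927, and had 128, 118, 79 and 78 counts, a share of 2.59% ± 0.02 in Tdrd6+/- and of 1.78% ± 0.11 in Tdrd6-/-. Junctions 31 and 32 and exon segment 3 between them, near the 3′ end, had higher usage. Junction 31 had 159, 177, 227 and 258 counts with a change of 0.47 ± 0.13, junction 32 had 167, 173, 238 and 233 counts with 0.41 ± 0.12, and the segment had 472, 528, 618 and 651 counts with 0.30 ± 0.09.

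Of the other genes, Catsperb and Catsperd had introns that passed. In Catsperb, introns 2, 22, 24 and 25 had higher shares, by 0.78 ± 0.18, 0.85 ± 0.23, 0.48 ± 0.13 and 0.70 ± 0.23. Intron 5 had a lower one at -0.36 ± 0.10. In CPM, 18 of 26 Catsperb introns were lower in Tdrd6-/-, 0 were higher and 8 overlapped, so the higher shares are relative to the other introns. Intron 2, of 2913 bp, had 456, 286, 366 and 297 counts while intron 5, of 27882 bp, had 1594, 780, 586 and 398. In Catsperd, intron 12 was lower at -0.47 ± 0.16, with 191, 201, 155 and 109 counts, and intron 14 higher at 0.67 ± 0.21, with 69, 76, 101 and 106 counts. No feature of Catsper1, Catsper2, Catsper3 or Catsper4 passed. In Catsper2 the smallest p-values were those of intron 12, exon segment 19 and junction 33. Intron 12 had 138, 130, 161 and 131 counts, and junction 33 had 367, 550, 457 and 537. Exon segment 19 is the outer part of the first exon, where Pdia3 overlaps it, and had 137, 183, 181 and 227 counts. The rest of that exon, segment 18, had 596, 886, 751 and 888 counts. Catsper3 and Catsper4 had 1 tested intron each, intron 2 with 40, 65, 86 and 32 counts and intron 4 with 32, 58, 65 and 53 counts, and Catsper1 had no tested feature.

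The summed intron counts set Catsperb apart from the rest. It had 17562, 9527, 8532 and 5756 intron counts, or 228, 125, 104 and 67.6 for every 100 gene counts, while its gene counts were nearly level. All 26 of its introns were highest, in CPM, in the first Tdrd6+/- sample, which is also the library with the largest intron share. Catsper3, with few counts, had 340, 262, 170 and 93.2 intron counts for every 100 gene counts. Catsperg1 hardly varied, with 76.1, 76.9, 75.7 and 71.3, since its introns and its gene count were both lower in Tdrd6-/-. The values were 110, 88.0, 84.0 and 75.7 for Catsper1, 50.6, 40.2, 47.8 and 35.5 for Catsper2, and 103, 130, 86.2 and 81.3 for Catsper4. For Catsperd they were 74.8, 66.8, 65.0 and 49.1, and for Catsperg2 59.6, 53.8, 53.9 and 47.1.

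This ratio moved with the libraries as a whole. The median over 11032 genes was 64.8, 58.1, 57.6 and 43.2, so that the second Tdrd6-/- sample was the lowest there as in 8 of 8 CatSper genes. The genotypes did not overlap in 6 of the 8 CatSper genes, all lower in Tdrd6-/-, against 43.8% of all genes. The median log2 ratio over the 8 was -0.31, and with intron counts and gene counts scaled separately by their library totals it turned to 0.07. Only Catsper3, Catsper4 and Catsperb stayed below 0 under that scaling. The part of the library-wide intron share in these ratios was not tested otherwise.

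**Figure D5:**
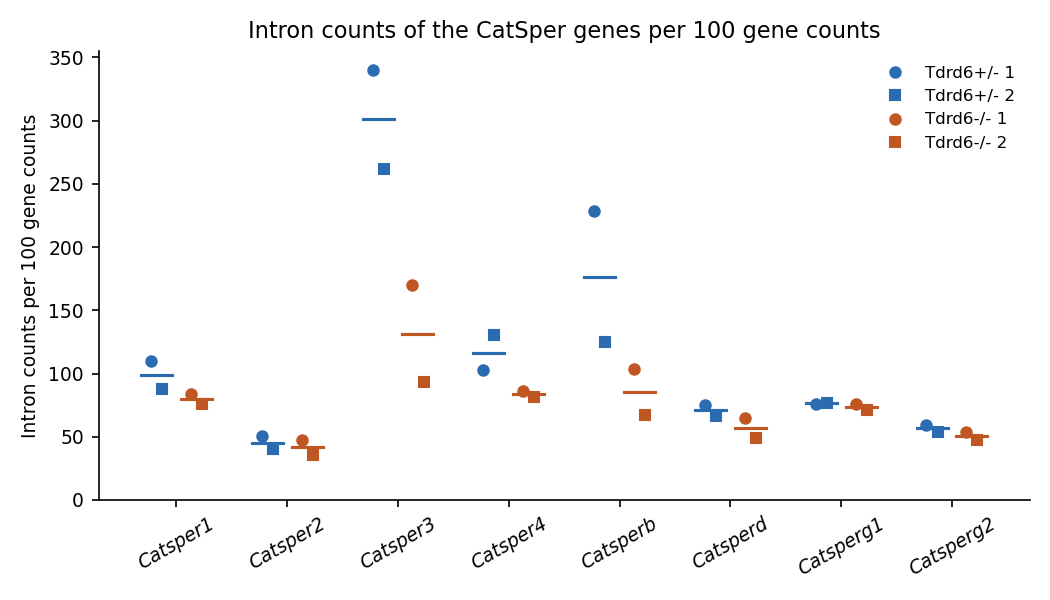
Intron counts for every 100 gene counts of each CatSper gene in each sample, on a linear axis from 0, with circles for replicate 1, squares for replicate 2 and lines at the group means (n = 2 per genotype). The first Tdrd6+/- sample of Catsperb stands at 228 above the other 3 samples of that gene, and the 4 values of Catsperg1 lie together between 71.3 and 76.9.

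Other genes of the channel and of sperm calcium and motility control were read from lists, with adjusted p-values over all genes tested. Of the other CatSper genes, 7 were tested and 0 passed, with a median log2 fold change of 0.09. Catsperz, which encodes a small protein of the channel's inner side, was the highest at 199, 256, 241 and 282 CPM per kb (log2 fold change 0.20 ± 0.14, edgeR adjusted p = 0.595). Of 13 tested genes for the control of sperm pH, membrane potential and calcium, 0 passed, with a median of -0.10. The highest of these was Slc9c1, the sperm sodium/proton exchanger, at 82.5, 95.2, 85.2 and 88.9 CPM per kb (log2 fold change -0.03 ± 0.13, edgeR adjusted p = 0.956).

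Of 20 genes for flagellar signalling and motility, 2 passed, both higher in Tdrd6-/-, beside 1.02% of all genes tested that passed as higher. The median log2 fold change of the list was 0.23. Fscb, a protein of the fibrous sheath around the sperm tail, had counts of 19, 49, 127 and 109 (log2 fold change 1.57 ± 0.35, edgeR adjusted p = 0.0129). Ropn1, also of the fibrous sheath, had counts of 49, 66, 137 and 120 (log2 fold change 0.93 ± 0.28, edgeR adjusted p = 0.0811). The highest gene of this list was Ldhc, the testis lactate dehydrogenase, at 2286, 2450, 2521 and 3107 CPM per kb (edgeR adjusted p = 0.449). Fscb did not pass without Tdrd6+/- replicate 1 (1.09), and Ropn1 did not without that sample (0.78), Tdrd6-/- replicate 1 (0.82) or Tdrd6-/- replicate 2 (1.04). The part of the spermatid markers given above in the values of Fscb and Ropn1 was not tested. All list genes together gave 8 passed, and 0 when the filter on low counts was dropped.

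Among the other marker lists, 3 of 16 late spermatocyte markers passed, 2 higher and 1 lower. For these lists the share of all genes tested is 4.80% passed, 1.02% higher and 3.78% lower. Sycp1 and Sycp2, of the synaptonemal complex, were higher, with log2 fold changes of 0.60 ± 0.16 (edgeR adjusted p = 0.0467) and 0.44 ± 0.14 (edgeR adjusted p = 0.09997). Piwil1, of the piRNA pathway, was lower, with a log2 fold change of -0.44 ± 0.13 (edgeR adjusted p = 0.0773). Sycp1 and Sycp2 did not pass without Tdrd6+/- replicate 2 (0.31 and 0.26) or Tdrd6-/- replicate 2 (0.50 and 0.49), nor Sycp2 without Tdrd6-/- replicate 1 (0.39), and Sycp1 stood at 0.98 without Tdrd6+/- replicate 1. Piwil1 passed only without Tdrd6+/- replicate 2 (-0.56) when 1 sample was left out, and did not pass with library totals (-0.36). Of 9 Sertoli cell markers 1 passed, Ctsl, higher by 0.55 ± 0.17 on the log2 scale (edgeR adjusted p = 0.0919) and not passing without Tdrd6+/- replicate 1 (0.55), Tdrd6+/- replicate 2 (0.56) or Tdrd6-/- replicate 2 (0.36), and the list summed to 30.4, 26.4, 33.6 and 39.7 CPM per kb. Of 13 markers of spermatogonia and early meiotic cells, 7 tested of Leydig and peritubular cells and 6 tested of blood and endothelial cells, 0 passed. Their summed levels ran from 24.3 to 30.3, from 3.19 to 4.13 and from 1.21 to 1.97 CPM per kb. The part of these markers in the values of the CatSper genes was not tested.

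The genes closest to Catsperg1 in level and pattern were sought by the Euclidean distance of log2 CPM per kb over the 4 samples. Among 18819 genes, Nf1, Npepps and Tnks were the nearest, at distances of 0.11, 0.12 and 0.24, and 38 genes lay within 0.5. Nf1, which encodes neurofibromin, had 29.3, 29.3, 19.4 and 15.8 CPM per kb, beside 29.4, 30.9, 19.3 and 15.1 for Catsperg1.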

How the data were processed

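The authors aligned paired-end fragments to mm10 (GRCm38) with GSNAP, used Ensembl release 75, and deposited raw counts per intron, gene, exon segment and junction; base calling was by bcl2fastq 1.8.4 per the submitters' processing notes, and the counting program is not given in the sources used here. The files hold no positions. Features were placed by their order in GENCODE M21 of the same build. All steps ran on the 2 samples of each genotype. The members and gene lists were chosen with earlier results of these data known.

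Gene counts went through filterByExpr and TMM scaling and were tested by quasi-likelihood in edgeR 4.0.16, with Benjamini-Hochberg adjustment at 0.1. Standard errors are the fold change over the root of its F statistic. DEXSeq and JunctionSeq, which the authors used for their own tests, were not installed, so their models were rebuilt from functions of DESeq2 1.42.0 (R 4.3.3) for features with at least 10 counts in total, with a likelihood ratio test and independent filtering, which left features with a mean count above 43.0 for introns and 48.0 for exon segments and junctions. Dispersions were estimated after the manner of DEXSeq, with 10 iterations and a trend on the feature's own mean. This was chosen after DESeq2's defaults had been seen to give few calls. On simulated counts with 200 changes of 2-fold, 59.5% of changed genes were found with 4.8% false calls. Of changed introns 71.0% were found with 22.8% false calls, and with the defaults 24.0% with 0. Of changed exon segments and junctions 85.9% were found with 9.52% false calls, and with the defaults 71.4% with 0. In the usage simulations the changed features were drawn only above a floor of mean count. Simulated exon segments and junctions were set against their gene's summed feature counts rather than the gene count, so these rates need not hold for the tests above. Samples of the same number did not deviate together (r = -0.11 over 12347 genes and 0.05 over 44784 introns), so no pairing was used. Replicates differed by more than sampling noise. Named features were, by a rule, those that passed and those with the smallest p of each gene. Named list genes were those that passed and the highest of each pathway list and of the spermatocyte markers. The protamine and transition protein genes were named as defining spermatid markers after their values were seen. Alternatives comprised other tests, filters, scalings, references and lengths, the replicate block, and leaving out each sample.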

Additional observations from a re-analysis of the deposited data

How the results depend on the processing

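With 2 samples per genotype, counts of calls moved widely. Catsper1, Catsper3 and Catsper4 had few counts, and features below the mean-count filter were not tested. Leaving out 1 sample gave 0 to 2 CatSper genes passed against 1, 3 to 12 list genes against 8, 257 to 1064 genes in all against 794, 2 to 14 CatSper introns against 14, 72 to 3431 introns in all against 1855, 0 to 8 CatSper exon segments and junctions against 6, and 262 to 3655 of these in all against 1982. Without Tdrd6-/- replicate 2, 0 CatSper genes, 3 list genes, 257 genes, 4 CatSper introns and 262 exon segments and junctions in all passed. Without Tdrd6+/- replicate 1, 2 CatSper introns, 72 introns in all and 0 CatSper exon segments and junctions did. Without the filter on low counts, 0 CatSper genes, 0 list genes and 75 genes in all passed. DESeq2's default dispersions, added after seeing the data, left 0 CatSper introns of 1 in all and 0 CatSper exon segments and junctions of 62 in all, and edgeR's usage test left 0 of 2 and 0 of 81. Against the gene's exonic count, 8 CatSper introns and 2956 in all passed. Beyond the setting changed, the cause of these differences was not tested.

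The replicate block gave 1 CatSper gene, 11 list genes and 1046 genes, 17 CatSper introns and 2624 in all, and 2 CatSper exon segments and junctions and 1439 in all, and since the numbers do not pair the samples nothing is read from it. A crossed replicate block, added after seeing the data, gave 1 CatSper gene, 12 list genes, 1175 genes, and 1 CatSper exon segment or junction of 1140 in all.

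The log2 ratio of the share of intron 22 was -0.79, lay between -0.85 and -0.72 without 1 sample, and was -1.12 per count of the other introns. The median log2 ratio of intron counts per gene count was -0.31, lay between -0.45 and -0.18 without 1 sample, and was 0.074 with separate scaling, under which it also turned for Catsper1 (0.091), Catsper2 (0.25), Catsperd (0.057), Catsperg1 (0.33) and Catsperg2 (0.22). For Catsper2, at -0.12 with all samples, it ran from -0.36 without Tdrd6-/- replicate 1 to values above 0 without Tdrd6+/- replicate 1 (0.050) and without Tdrd6-/- replicate 2 (0.074). Against the exonic count, introns 24 and 25 of Catsperb turned to -0.22 and -0.022. The median level of the 8 genes was 44.4 CPM per kb and 55.3 by the longest coding transcript, an alternative added after seeing the data. Of all other values, 387 stayed within the limit set for them, 67 moved beyond it and 30 lost their call. That limit was the spread between replicates, a kept call or, for numbers of list genes passed, a set ratio to the main number.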
